A study of Mus musculus with 72 samples.

Results

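The gastrin-releasing peptide receptor antagonist RC-3095 (RC), given alone, was compared with mock in the mouse melanoma cell line 1057. The comparison took every RC-alone library and every mock library of that line by their labels, 3 of each, which is 6 of the 72 libraries of the series. Past both thresholds used here, an adjusted p under 0.05 and a log2 fold change of more than 1 in size, 115 of 14195 genes tested rose and 11 fell. Among the genes that rose were the orphan nuclear receptors Nr4a1, Nr4a2 and Nr4a3, the AP-1 subunits Fos, Fosl1 and Fosl2, and the Gq-responsive genes Stc1, Sphk1, Rgs2 and Plaur, and each of them was higher still after the agonist GRP.

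GRPR is a receptor of the bombesin family that couples mainly to Gq/11. Its ligand, gastrin-releasing peptide (GRP), activates phospholipase C-beta through it, and the inositol trisphosphate and diacylglycerol that follow release calcium and activate protein kinase C. Within hours such signalling induces immediate early transcription factors and then their targets, among them secreted factors, proteases and feedback regulators. An antagonist occupies the receptor without driving this cascade, whereas a ligand that drives it in part is called a partial or weak agonist. RC-3095 is a synthetic peptide related to bombesin.

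Line 1057 was derived from a melanoma of a female mouse and is a single cell line, labelled GRPRpos. Its label reads Tyr::NRASQ61K/° with Cdkn2a-/-, Tyr::CreA/° and Cdh1dF/dF: mutant NRAS and the Cre recombinase are both driven by the tyrosinase promoter, which is active in melanocytes, Cdkn2a is lost, and E-cadherin (Cdh1) is deleted by the Cre. All libraries of the line, mock included, carry these alleles. The cells were starved in 0.5% fetal calf serum for 18 h and then treated for 4 h with 1 µM RC, with 10 nM GRP, with both, or with mock, which is labelled as 0.1% DMSO. The labels name DMSO for mock alone and do not give the solvent of RC, so a part of the solvent in the difference cannot be told apart from RC. GRP and RC were given at different doses, and their values are therefore set side by side without a test between them. The replicates are described as independent biological replicates, and the labels do not say how the cultures were separated.

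The 6 libraries held 30085078 to 36679667 counts each, within the range of 19512882 to 46862053 over all 72. Spread between replicates was small in 1057, with a biological coefficient of variation of 3.87%, against 10.96% to 26.5% in the other 5 lines. The labelled cell type held: 8 melanocyte lineage markers summed to between 8058 and 8553 CPM (gene counts scaled to the library's total) in mock and between 8085 and 8154 CPM after RC, whereas keratinocyte markers stayed at or below 1.33 CPM and T cell markers at or below 0.0277 CPM. Fibroblast markers summed to 3.605 to 4.36 CPM in mock and 4.50 to 4.88 CPM after RC, macrophage markers to 1.20 to 1.70 CPM in mock and 1.94 to 2.43 CPM after RC, and endothelial markers to 6.82 to 8.20 CPM and 8.17 to 8.61 CPM. The fibroblast and macrophage sums did not overlap between the groups, where 18.8% of all genes had every RC library above every mock library. The fibroblast sum was mostly Pdgfra (3.55 to 4.85 CPM) and the macrophage sum mostly Cd68 (1.14 to 2.35 CPM). The other members of these lists had at most 6 counts in any library. Their part in the results was not tested. In bulk RNA, fewer cells expressing a gene and less of its RNA per cell cannot be told apart. In the lines used for comparison, 1 library labelled 1014-Ctrl mock held 50.6 CPM of Grpr while the other mock libraries of 1014-Ctrl held 0, and 1 library labelled 1181-Grpr GRP+RC held 0, so values from these lines are given with and without those libraries where they matter.

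A principal component analysis of the 12 libraries of 1057 placed the RC libraries between mock and GRP. On the first component, which held 53.6% of the variance, mock libraries lay between -35.4 and -34.3, RC libraries between -14.0 and -12.9, GRP+RC libraries between 12.2 and 14.8 and GRP libraries between 34.7 and 35.3, without overlap. The second component, with 9.42% of the variance, set all 6 libraries that received RC (10.1 to 12.1) apart from all 6 that did not (-13.3 to -9.29).

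The 115 genes that rose were 0.81% of those tested and the 11 that fell 0.0775%, and at an adjusted p under 0.05 alone 1842 genes rose (13% of those tested) and 1606 fell (11.3%). Of the 115, 82 reached a mean of 0.5 CPM in RC or mock, and 15 had no mock library above 3 counts, so that their fold changes are poorly determined. All 3 RC libraries lay above all 3 mock libraries for 112 of the 115 and for 18.8% of all genes, a contrast that the choice of the 115 on these libraries largely fixes. Among genes of at least 0.5 CPM, those just past the fold threshold were Cd24a and Fam110c, both with a log2 fold change of 1.02, and those just short of it Fam167a at 0.997 and Eno3 at 0.99. For comparison, GRP against the same mock libraries raised 704 genes (4.96%) and lowered 213 (1.5%) by the same thresholds, and GRP+RC raised 428 (3.02%) and lowered 65 (0.458%).

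**Figure D1:**
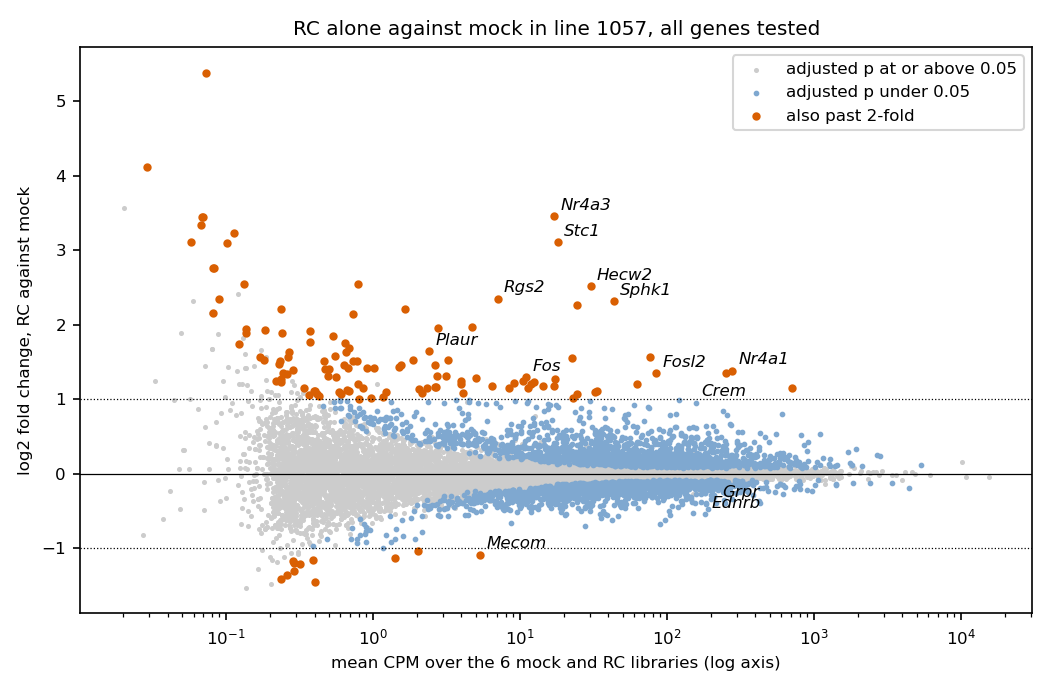
RC alone against mock in 1057, 1 point per gene tested: the x axis is the mean level in CPM on a log axis and the y axis the log2 fold change, with genes past both thresholds coloured. The 115 coloured points above zero outnumber the 11 below it, and Nr4a3 (3.46) and Stc1 (3.11) stand highest among genes above 1 CPM.

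The receptor itself was measured first. Grpr, on chromosome X at chrX:163513904-163549677 (GRCm38), was at 243, 247 and 246 CPM in mock and at 185, 189 and 186 CPM after RC. All RC libraries lay below all mock libraries. The log2 fold change was -0.39 (SE 0.04, adjusted p = 4.12e-07 by edgeR's quasi-likelihood test, which gave every adjusted p below), and after GRP it was -0.40. Of 12 Gq protein and phospholipase C-beta genes tested 1 rose and 1 fell at an adjusted p under 0.05, and of 11 protein kinase C isoform and RASGRP genes 1 rose and 1 fell. These counts are near the shares of all genes, 13% higher and 11.3% lower, and are no result about these lists. The riser among the protein kinase C isoform and RASGRP genes was Rasgrp3, a diacylglycerol-regulated Ras activator, which is described further on.

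Immediate early transcription factors had the highest median change of the lists of gene function. Of 26 tested, 22 rose at an adjusted p under 0.05 (13% of all genes did) and none fell, and 8 also passed the fold threshold. Their median log2 fold change was 0.55 against -0.01 over all genes, and it was 0.78 after GRP. The 4 that passed no test were Srf, Maff, Klf10 and Klf2.

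Nr4a3 (chr4:48045153-48086447) encodes an orphan nuclear receptor that is induced by calcium and cAMP signals, and among these immediate early factors it rose most. Its level was 3.17, 3.14 and 2.23 CPM in mock and 27.7, 34.5 and 31.7 CPM after RC, while GRP+RC gave a mean of 135 CPM and GRP 214 CPM. The 4 groups did not overlap. The log2 fold change after RC was 3.46 (SE 0.11, adjusted p = 2.27e-13), or 10.99-fold, and after GRP 6.23. Nr4a1 (chr15:101254269-101274795), its paralog, stood at 163, 154 and 145 CPM in mock and at 400.1, 408 and 398 CPM after RC. These groups were again separate, and GRP+RC (866 CPM) and GRP (1145 CPM) lay higher, with log2 fold changes of 1.38 after RC (SE 0.04, adjusted p = 1.78e-14) and 2.89 after GRP. Nr4a2, the remaining member of the subfamily, went from 10.6, 9.10 and 10.6 CPM to 23.8, 23.9 and 25.4 CPM (log2 fold change 1.27, SE 0.05, adjusted p = 1.86e-11), and its log2 fold change after GRP was 3.23.

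Members of the FOS, JUN and EGR families differed in how the values after RC and GRP compared. Fos (chr12:85473890-85477273), the prototype immediate early gene, was at 6.31, 6.44 and 6.25 CPM in mock and at 16.4, 14.4 and 16.1 CPM after RC. Fosl2, a FOS paralog that lasts longer after a stimulus, was at 49.97, 47.03 and 46.0 CPM and at 122, 125 and 119 CPM. Neither gene's RC libraries overlapped its mock libraries, and their log2 fold changes were 1.30 (SE 0.07) for Fos and 1.35 (SE 0.04) for Fosl2 after RC, and 2.57 and 2.56 after GRP. Fosl1 and Fosb were low and also rose, with log2 fold changes of 1.13 (adjusted p = 0.000872) and 0.66 (adjusted p = 0.0229) after RC against 3.11 and 2.68 after GRP. The call of Fosb was lost without mock replicate 1 or 3 or RC replicate 1 or 2 (adjusted p of 0.0505 to 0.108), and without mock replicate 2 its log2 fold change was 1.01. For Jun, the main partner of FOS proteins, RC and GRP gave much closer values, with log2 fold changes of 0.71 (adjusted p = 1.73e-06) and 0.80, as they did for Jund (0.80 and 1.01) and Junb (0.38 and 0.34). Egr3, a zinc finger factor, went from 10.7, 12.4 and 11.4 CPM to 31.7, 34.2 and 35.02 CPM, without overlap (log2 fold change 1.55, SE 0.08, adjusted p = 3.67e-10, and 2.07 after GRP), and Egr4 changed by 1.51 (adjusted p = 0.00561) against 3.06 after GRP. Egr2 changed by 0.68 after RC and 0.58 after GRP, and Egr1, the best known of the family, by 0.24 and 0.45. The calls of Junb, Egr1 and Egr2 after RC were lost when some single libraries were left out, with adjusted p up to 0.0845, 0.0651 and 0.127.

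**Figure D2:**
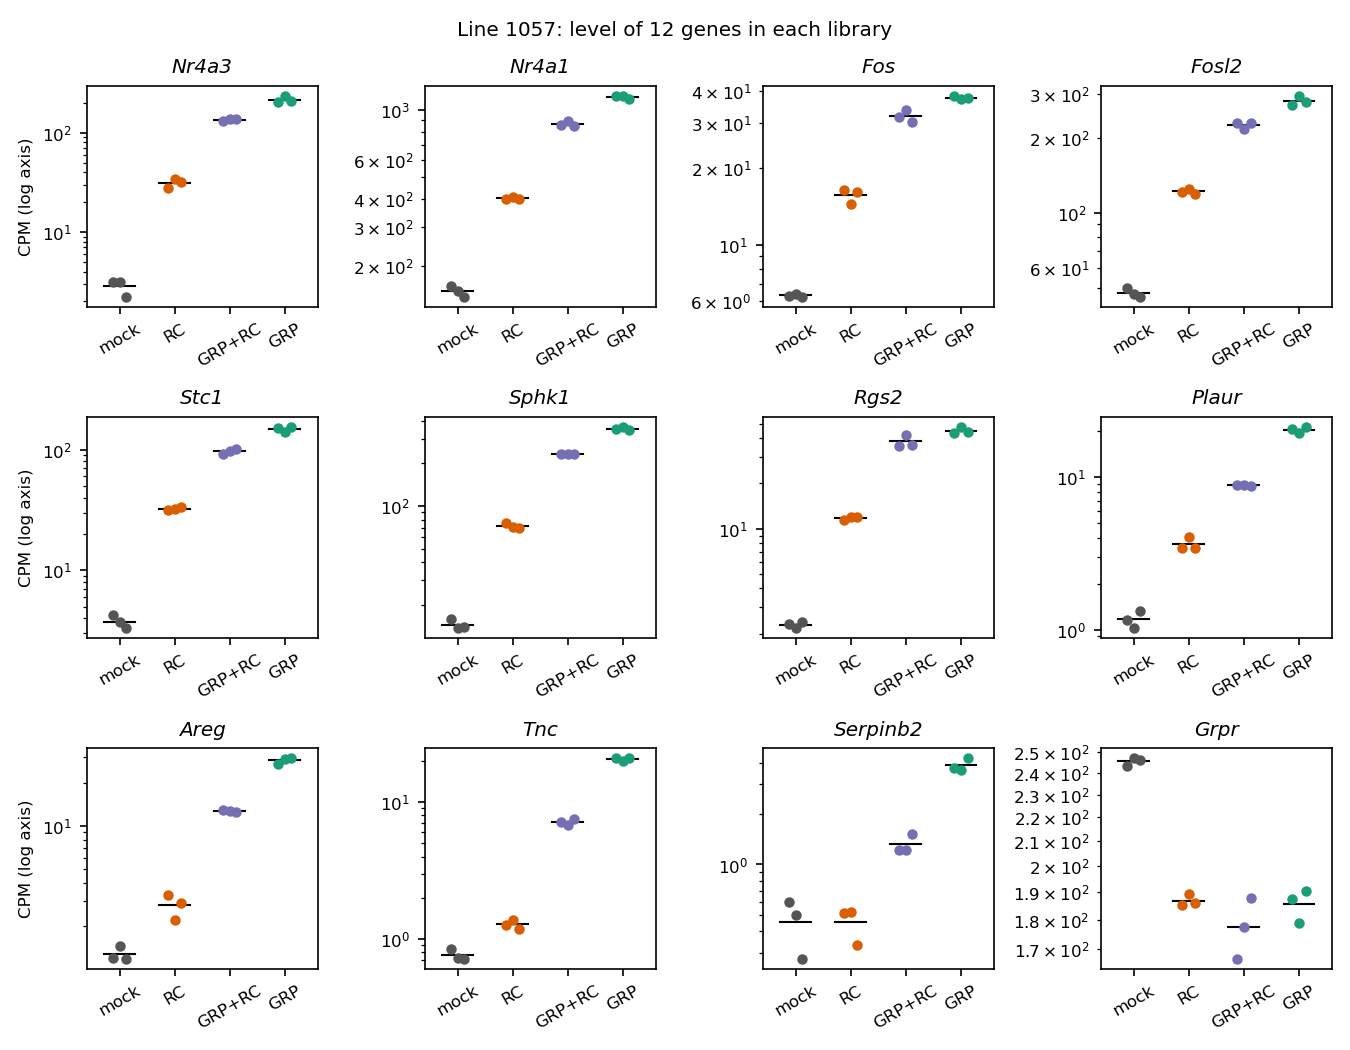
Level of 12 genes in each of the 12 libraries of 1057, in CPM on a log axis, 3 points per group (mock, RC, GRP+RC, GRP) with a bar at the mean. Nr4a3, Nr4a1, Fos, Fosl2, Stc1, Sphk1, Rgs2, Plaur, Areg and Tnc step up from mock to RC to GRP+RC to GRP, Serpinb2 overlaps between mock and RC, and Grpr is lower in all 3 treated groups than in mock.

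Upstream sequence of 4 of these genes is shown because immediate early genes are classically driven through CRE sites, bound by CREB, and AP-1 target genes through AP-1 sites. The 250 bases before the RefSeq start were taken from RefSeq (GRCm38.p6) and read 5′ to 3′ on the strand of the gene. Each is printed only up to the first annotated exon base. For Nr4a3 this left the 98 bases farthest from the RefSeq start, which end just before the annotated gene start. Capitals mark TGACG or its reverse complement CGTCA, the core of a CRE, and TGANTCA, the AP-1 site. The windows are chr4:48045055-48045152 on the plus strand for Nr4a3, chr15:101266596-101266845 on the plus strand for Nr4a1 (the start of a transcript that begins inside the annotated gene), chr12:85473640-85473889 on the plus strand for Fos and chr7:24462233-24462482 on the plus strand for Plaur.
Nr4a3: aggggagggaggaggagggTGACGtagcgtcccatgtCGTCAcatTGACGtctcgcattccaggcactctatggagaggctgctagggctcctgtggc
Nr4a1: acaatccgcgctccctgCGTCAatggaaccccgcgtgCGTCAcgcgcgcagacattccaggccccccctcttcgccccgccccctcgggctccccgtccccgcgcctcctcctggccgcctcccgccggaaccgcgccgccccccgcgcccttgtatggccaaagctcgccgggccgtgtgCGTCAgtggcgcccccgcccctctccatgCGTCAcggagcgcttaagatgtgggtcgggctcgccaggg
Fos: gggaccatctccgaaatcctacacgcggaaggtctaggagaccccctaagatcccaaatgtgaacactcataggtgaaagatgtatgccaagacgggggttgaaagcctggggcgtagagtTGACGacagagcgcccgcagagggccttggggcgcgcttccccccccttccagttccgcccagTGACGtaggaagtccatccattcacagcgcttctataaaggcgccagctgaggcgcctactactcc
Plaur: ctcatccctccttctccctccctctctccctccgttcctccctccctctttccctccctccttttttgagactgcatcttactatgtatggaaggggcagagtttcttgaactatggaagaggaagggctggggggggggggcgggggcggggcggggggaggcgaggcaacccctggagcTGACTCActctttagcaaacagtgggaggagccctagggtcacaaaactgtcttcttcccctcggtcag
The Nr4a3 window held 3 copies of TGACG on either strand, the Nr4a1 window 4 and the Fos window 2, while the Plaur window held none and 1 TGANTCA. Over uncut windows of 250 bases before the RefSeq start, on both strands, TGACG was found in 15 of 20 immediate early factors with a window (75%), in 26 of 74 genes that rose past both thresholds (35.1%) and in 30.8% of the 10193 tested genes with a window. TGANTCA was in none of the 20, in 8 of the 74 (10.8%) and in 5.25% of all. The full palindrome TGACGTCA, which contains TGACG, was in 2 of the 20 (10%), 5 of the 74 (6.76%) and 3.11% of all. These are matches of letters and were not tested.

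Genes known to respond to Gq, protein kinase C and calcium made up the next group. Of 25 tested, 15 rose at an adjusted p under 0.05 (13% of all genes did) and none fell (11.3% did). Past the fold threshold as well, 6 rose, against 0.81% of all genes. The median log2 fold change was 0.48 after RC and 2.47 after GRP. Stc1 (chr14:69029238-69041804), a secreted glycoprotein of calcium and phosphate handling, was at 4.23, 3.69 and 3.33 CPM in mock and at 31.5, 32.5 and 33.3 CPM after RC. Every RC library lay above every mock library, and GRP+RC (mean 96.6 CPM) and GRP (148 CPM) lay higher. The log2 fold change was 3.11 (SE 0.07, adjusted p = 3.63e-15), or 8.63-fold, and 5.30 after GRP. Sphk1 (chr11:116530925-116536674), the kinase that makes sphingosine-1-phosphate, went from 15.8, 13.8 and 13.8 CPM to 75.6, 70.9 and 70.1 CPM, without overlap (log2 fold change 2.32, SE 0.05, and 4.603 after GRP). Rgs2 (chr1:143999338-144004161), which speeds the shut-off of Gq, went from 2.32, 2.19 and 2.40 CPM to 11.4, 11.98 and 11.9 CPM. Its groups were separate as well, with log2 fold changes of 2.35 (SE 0.10, adjusted p = 1.46e-11) after RC and 4.28 after GRP.

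The urokinase pair split in how close RC came to GRP. Plaur (chr7:24462484-24475968), the urokinase receptor, was at 1.15, 1.03 and 1.32 CPM in mock and at 3.44, 4.08 and 3.44 CPM after RC. No RC library overlapped mock, and GRP+RC reached 8.86 CPM and GRP 20.4 CPM, which made log2 fold changes of 1.65 (SE 0.12, adjusted p = 2.56e-08) after RC and 4.13 after GRP. Plau, the protease urokinase itself, went from 41.0, 36.1 and 37.6 CPM to 87.1, 85.8 and 90.6 CPM, and after GRP it averaged 93.5 CPM. Its log2 fold changes were 1.20 (SE 0.06, adjusted p = 1.4e-10) and 1.29. Lif, a cytokine of the interleukin-6 family, was like Plau, at 41.7, 40.8 and 41.3 CPM in mock and 80.0, 75.9 and 79.1 CPM after RC, with log2 fold changes of 0.92 (SE 0.04) after RC and 1.03 after GRP. By contrast Areg, which encodes the EGF receptor ligand amphiregulin, went from 1.20, 1.44 and 1.18 CPM to 3.31, 2.22 and 2.91 CPM after RC (log2 fold change 1.14, SE 0.15, adjusted p = 2.36e-05) and to a mean of 28.6 CPM after GRP, a log2 fold change of 4.48. Hbegf, another ligand of that receptor, changed by 0.24 (adjusted p = 0.00288) after RC and 1.42 after GRP.

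Receptors and further genes with large changes came from several classes. Hecw2, an E3 ubiquitin ligase, was at 9.26, 8.38 and 9.37 CPM in mock and at 48.4, 52.1 and 54.4 CPM after RC (log2 fold change 2.52, SE 0.06, adjusted p = 3.63e-15). Cytip, a regulator of cytohesins and of leukocyte adhesion, was at 9.67, 7.99 and 7.66 CPM and at 40.1, 40.9 and 40.4 CPM (log2 fold change 2.26, SE 0.06). In both genes RC and mock did not overlap, and the values after GRP were 4.23 and 3.65. Nt5e, the ectoenzyme CD73 that makes adenosine, went from 2.13, 1.80 and 1.76 CPM to 6.997, 6.90 and 8.60 CPM (log2 fold change 1.97, SE 0.11, and 3.77 after GRP). Receptor genes at low level rose too, namely the prostaglandin F receptor gene Ptgfr, from 0.0827 to 0.464 CPM in mock to 1.36 to 1.37 CPM after RC, and Ramp3, a co-receptor of the calcitonin receptor family, from 0.386 to 0.694 CPM to 2.57 to 3.01 CPM. The prostaglandin E receptor gene Ptger4 was at 0.109 to 0.193 CPM in mock, 0.529 to 0.678 CPM after RC and a mean of 0.514 CPM after GRP, with log2 fold changes of 1.91 (SE 0.31, adjusted p = 0.000194) after RC and 1.69 after GRP. The log2 fold changes of Ptgfr and Ramp3 were 2.55 and 2.21 after RC and 4.73 and 6.13 after GRP.

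Feedback genes were raised in part. Of 16 CREB target and cAMP feedback genes, 10 rose at an adjusted p under 0.05, 3 past the fold threshold, and none fell (median log2 fold change 0.37, and 0.64 after GRP). Crem, whose short product ICER represses CRE sites, went from 114, 96.5 and 109 CPM to 209, 207 and 204 CPM, without overlap (log2 fold change 0.95, SE 0.05, and 1.66 after GRP). Of 21 MAP kinase feedback inhibitors 10 rose and 1 fell (13% and 11.3% of all genes did), with a median of 0.17 (0.26 after GRP). Dusp2, a nuclear MAP kinase phosphatase, was at 2.65, 2.19 and 2.37 CPM in mock and 5.21, 5.58 and 5.82 CPM after RC (log2 fold change 1.20, SE 0.10, adjusted p = 6.79e-08, and 1.40 after GRP), and Dusp5, specific for ERK, changed by 0.74 after RC and 1.69 after GRP.

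**Figure D3:**
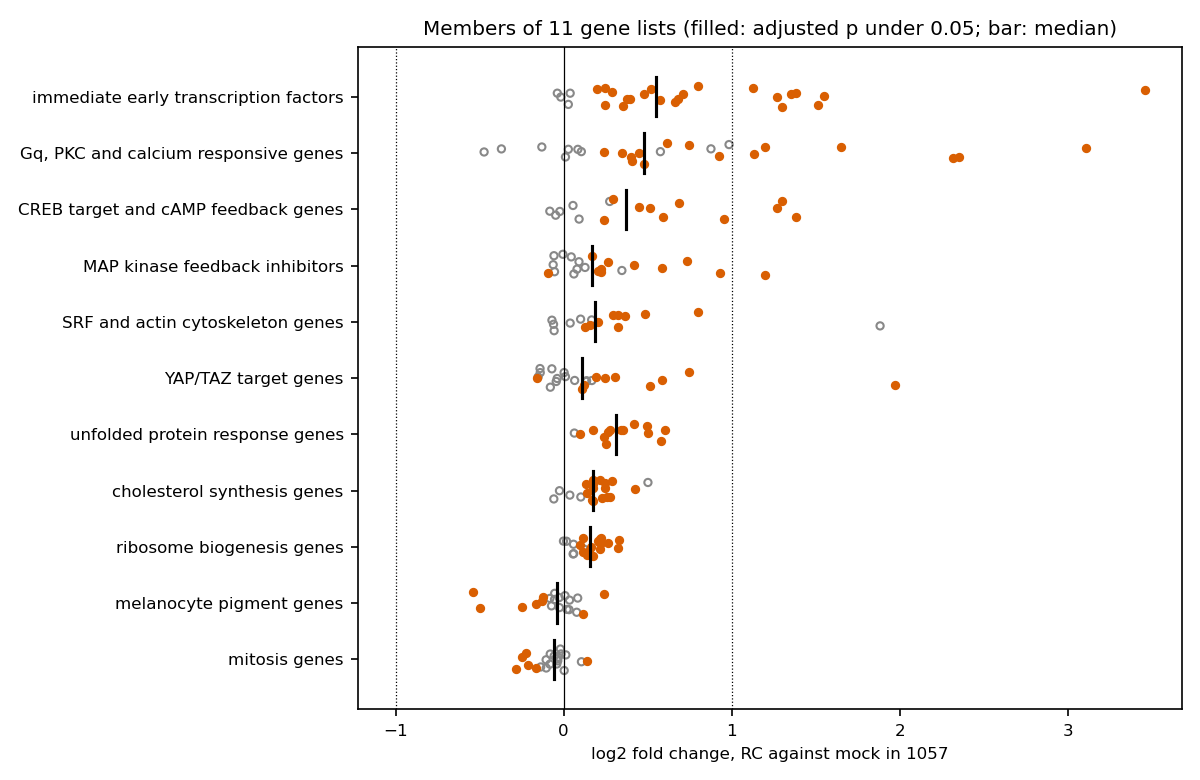
Log2 fold change of RC against mock in 1057 (x axis) for the tested members of 11 gene lists (y axis), with filled points at an adjusted p under 0.05, open points otherwise, a bar at the median of each list and dotted lines at 1 and -1. The medians of the immediate early factors (0.55) and of the Gq-responsive genes (0.48) lie farthest to the right, and those of the pigment (-0.04) and mitosis (-0.06) genes lie near zero.

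YAP/TAZ target genes and the actin-linked genes of the serum response factor were less moved. Of 23 YAP/TAZ targets 9 rose, 1 of them past the fold threshold, and 1 fell at an adjusted p under 0.05, against 13% and 11.3% of all genes. Their median log2 fold change was 0.11 (0.28 after GRP) and the largest 1.97. Of 16 SRF and actin genes 9 rose, 0 of them past the fold threshold, and none fell, with a median of 0.18 (0.58 after GRP). The matricellular gene Ccn1 went from 1.28, 0.943 and 0.992 CPM to 1.90, 1.64 and 1.89 CPM after RC and to a mean of 19.6 CPM after GRP. RC and mock did not overlap for Ccn1, and the log2 fold changes were 0.75 (SE 0.17, adjusted p = 0.00305) and 4.19. Ccn2, its relative, stood at 3.19, 4.13 and 4.49 CPM in mock and at 4.01, 4.43 and 4.56 CPM after RC, which overlap (log2 fold change 0.14, SE 0.13, adjusted p = 0.490, and 1.45 after GRP). The kinase gene Lats2, a Hippo pathway inhibitor of YAP that YAP also induces, changed by 0.20 (adjusted p = 0.00151), the partner factor Tead4 by 0.14 (adjusted p = 0.223) and the matrix-associated Crim1 by 0.12 (adjusted p = 0.0162), against 1.53, 0.82 and 0.44 after GRP. Without mock replicate 3 or RC replicate 2 the adjusted p of Crim1 was 0.0566 or 0.0725. Tnc, the matrix protein tenascin C, was at 0.846, 0.721 and 0.716 CPM in mock, 1.27, 1.37 and 1.19 CPM after RC and a mean of 20.6 CPM after GRP. Its RC libraries lay above mock, with log2 fold changes of 0.75 (SE 0.16, adjusted p = 0.00173) after RC and 4.75 after GRP. Serpinb2, an inhibitor of urokinase, was at 0.601, 0.499 and 0.276 CPM in mock and at 0.515, 0.520 and 0.331 CPM after RC, fully overlapping (log2 fold change 0.01, SE 0.30, adjusted p = 0.984), while GRP gave 3.07 and a mean of 3.88 CPM.

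Genes of protein folding, cholesterol synthesis and ribosome production rose by small amounts. Over all genes tested, 13% rose and 11.3% fell at an adjusted p under 0.05. In the unfolded protein response, 13 of 14 genes rose at that adjusted p and none past the fold threshold. Their median log2 fold change was 0.31 (1.24 after GRP). Xbp1, the transcription factor of this response, went from 92.1, 87.9 and 88.7 CPM to 124, 128 and 127 CPM (log2 fold change 0.49, SE 0.03, adjusted p = 3.12e-09, and 1.23 after GRP), and the endoplasmic reticulum chaperone gene Hspa5 from 793, 750.4 and 794 CPM to 1047, 1004 and 1075 CPM (0.42, and 1.72 after GRP). Manf, a secreted factor of the same response, changed by 0.58 and 1.74. RC libraries lay above mock in all 3 genes. Of 20 cholesterol synthesis genes 15 rose and none fell (median 0.18, and 0.42 after GRP). Of 22 ribosome biogenesis genes 16 rose and none fell (median 0.16, and 0.25 after GRP), and of 22 ATF4 and integrated stress response genes 12 rose and 2 fell.

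Few genes fell by much. Mecom, a zinc finger transcription factor, had the highest level of the 11 genes that fell past the fold threshold, going from 6.34, 8.07 and 7.47 CPM to 3.53, 3.26 and 3.54 CPM, without overlap (log2 fold change -1.08, SE 0.11, adjusted p = 1.66e-06, and -2.21 after GRP). The axon guidance ligand Sema6c went from 0.628, 0.721 and 0.413 CPM to 0.190, 0.164 and 0.298 CPM, with a log2 fold change of -1.45 (SE 0.39, adjusted p = 0.0117), and an adjusted p of 0.0502 to 0.0579 without mock replicate 2 or RC replicate 1 or 2. Of the 11, 5 reached a mean of 0.5 CPM, and all RC libraries lay below mock for 10, which their choice largely fixes, and for 19.6% of all genes. Flrt2, which encodes an adhesion protein, lay at the threshold with -0.999 after RC and -1.02 after GRP. Among 20 melanocyte pigment genes 6 fell and 2 rose at an adjusted p under 0.05, against 11.3% and 13% of all genes (median -0.04, and -0.11 after GRP). The endothelin receptor gene Ednrb was at 221, 214 and 214 CPM in mock and at 148, 149.9 and 148 CPM after RC, Rab27a, a carrier of melanosomes, at 35.8, 34.5 and 34.6 CPM and at 25.7, 24.6 and 23.9 CPM, both without overlap. Their log2 fold changes were -0.54 (SE 0.03) and -0.50 after RC and -1.21 and -1.24 after GRP, and Mc1r, the melanocortin receptor, changed by -0.25 and -0.83. Mitf, the master factor of the lineage, went the other way, with 0.24 (adjusted p = 7.09e-05) after RC and 0.94 after GRP. Erbb3, a neuregulin receptor, went from 183, 175 and 173 CPM to 139.9, 129 and 133 CPM after RC and to 55.6 CPM after GRP (log2 fold change -0.40, SE 0.04, and -1.67). Of 21 mitosis genes 5 fell and 1 rose, or 9 fell without mock replicate 1, against the same shares of all genes (median -0.06, and -0.32 after GRP).

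The remaining lists are given by their counts at an adjusted p under 0.05, where 13% of all genes were higher and 11.3% lower, and a count near those shares is no result about a list. Clock genes had 4 higher and 7 lower of 15, p53 targets 6 and 4 of 15, Wnt targets 2 and 4 of 15, oxidative stress genes 3 and 4 of 15, and glycolysis and hypoxia genes 3 and 5 of 23. Interferon-stimulated genes had 2 higher and 1 lower of 19, NF-kappaB feedback genes 5 and 1 of 14, heat shock genes 4 and 0 of 14, fatty acid synthesis genes 1 and 0 of 12, and histone genes 0 and 0 of 10. Matrix genes had 6 higher and 1 lower of 21, integrins and laminins 8 and 4 of 24, TGF-beta family genes 6 and 0 of 15, EGF-family genes 2 and 1 of 8, and neural crest genes 2 and 1 of 10. Cell cycle regulators of the MYC and cyclin D list had 6 higher and 1 lower of 17, DNA replication genes 4 and 1 of 20, estrogen receptors and targets 3 and 0 of 9, and glucocorticoid-responsive genes 5 and 0 of 10. Of the 5 bombesin-family receptors and ligands 2 could be tested, and Grpr was the one that passed.

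A smaller group rose after RC and not after GRP. Tnf (chr17:35199381-35202007), the inflammatory cytokine, was at 0.300, 0.416 and 0.110 CPM in mock and at 1.00, 0.657 and 0.827 CPM after RC, while GRP averaged 0.278 CPM and GRP+RC 0.913 CPM. The RC groups lay above both groups without RC. RC against mock gave a log2 fold change of 1.58 (SE 0.33, adjusted p = 0.00182), GRP against mock 0.02 (adjusted p = 0.966), and GRP+RC against GRP 1.70 (adjusted p = 0.000727). Tnf had only 4 to 15 counts in the mock libraries. RC against mock and GRP+RC against GRP share no library. Tnf, Nol4, Kank3, Ccrl2 and Met are described here because both comparisons called them in the same direction. Their agreement is therefore built in, and nothing is read from it. Nol4, a nucleolar protein gene, followed the pattern of Tnf with 2.54, 2.997 and 3.14 CPM in mock and 6.94, 6.29 and 8.003 CPM after RC (log2 fold change 1.28, adjusted p = 2.89e-07), and with 1.20 for GRP+RC against GRP. Kank3, whose product regulates actin, changed by 0.93 after RC (adjusted p = 2.31e-08), by 0.01 after GRP and by 1.03 in GRP+RC against GRP, and the chemokine-binding receptor gene Ccrl2 by 0.89, -0.03 and 0.88. Gem, a small GTPase that restrains calcium channels, changed by 0.45, 0.02 and 0.30. Rasgrp3 moved in opposite directions, from 46.4, 43.4 and 45.8 CPM in mock to 59.5, 60.6 and 59.0 CPM after RC but to 26.3 CPM after GRP, with log2 fold changes of 0.40 (adjusted p = 7.39e-07), -0.78 (adjusted p = 2.57e-11) and, in GRP+RC against GRP, 1.01. Met, the hepatocyte growth factor receptor, fell from 155, 148 and 147 CPM to 117, 119 and 120.2 CPM after RC and averaged 101 CPM after GRP+RC and 155 CPM after GRP. The cytokine list, to which Tnf and Lif belong, had 5 of 12 genes higher and 1 lower after RC at an adjusted p under 0.05. Over all genes 13% were higher and 11.3% lower.

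The libraries that received GRP allowed RC to be read against another baseline. At an adjusted p under 0.05, GRP+RC against GRP raised 1555 genes (11% of those tested) and lowered 1946 (13.7%). Of the 115 genes that rose past both thresholds after RC alone, 43 were lower in GRP+RC than in GRP (37.4%, and 2.21% of the 1946) and 16 were higher (13.9%, and 1.03% of the 1555). Nr4a3 was lower by a log2 fold change of -0.67, Stc1 by -0.62, Sphk1 by -0.60, Nr4a1 by -0.40 and Plaur by -1.20. Of all 1842 genes that rose after RC alone, 603 were lower in GRP+RC than in GRP (32.7%, and 31% of the 1946) and 324 higher (17.6%, and 20.8% of the 1555). Of the 1606 that fell after RC alone, 331 were higher in GRP+RC than in GRP (20.6%, and 21.3% of the 1555) and 209 lower (13%, and 10.7% of the 1946). Genes raised by RC without GRP were therefore more often lower than higher when RC was added to GRP.

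A list of GRP-responsive genes from other lines was then read in RC against mock of 1057. It was taken from 1064, a female line of the same genotype, and 1014-Grpr, a female Tyr::NRASQ61K/° line with CMV::Grpr/tGFP, and so uses no library of 1057. GRP raised 106 genes past both thresholds in both lines, of which 102 were tested in 1057. After RC alone, 66 of the 102 were higher (64.7%, against 13% of all genes) and 1 lower (0.98%) at an adjusted p under 0.05, 15 passed the fold threshold (14.7%, against 0.81%), and 95 had a log2 fold change above 0 (48.7% of all genes did). The median was 0.36 against -0.01 over all genes. After GRP the same 102 genes had a median of 1.34 in 1057, and in GRP+RC against GRP 81 of them were lower (79.4%, against 13.7%) and 4 higher. Of 17 genes lowered by GRP in both lines, 16 were tested, and 9 of them were lower after RC (56.2%, against 11.3%), with a median of -0.32 and none above 0. In the receptor-negative lines 1181-Ctrl and 1014-Ctrl none of the 106 genes was called. There 0% of all genes tested were called, so that count says nothing about the list. The medians of the list were 0.04 over 89 genes and -0.01 over 95, or -0.03 over 95 without the 1014-Ctrl mock library that held Grpr.

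**Figure D4:**
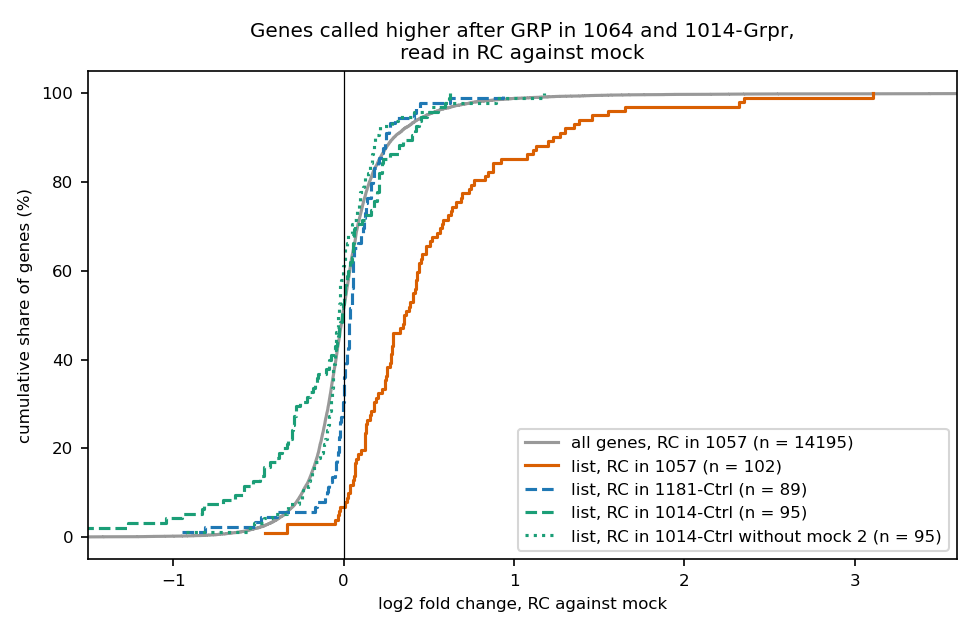
Cumulative share of genes (y axis, %) against the log2 fold change of RC against mock (x axis), for all genes in 1057 and for the genes that GRP raised in both 1064 and 1014-Grpr, read in 1057, 1181-Ctrl and 1014-Ctrl, the last with and without 1 mock library. The curve of the list in 1057 is shifted to the right (median 0.36), and those in the control lines cross the middle near 0; the axis is cut at -1.5 and 3.6.

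Read the other way, of the 115 genes that rose after RC in 1057, 83 were tested in 1064 and 26 of them were raised past both thresholds by GRP there (31.3%, against 1.52% of all genes, and 12.4% of the 210 genes GRP raised). In 1014-Grpr 52 were tested and 29 were raised by GRP (55.8%, against 3.16%, and 6.68% of 434), while 1 was lowered (1.92%, against 0.852%).

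Without a replicate block, RC alone called no gene in the other 5 lines. With 3 libraries against 3, edgeR's quasi-likelihood test gave 0 genes at an adjusted p under 0.05 in 1181-Ctrl, 1181-Grpr, 1014-Ctrl, 1014-Grpr and 1064, with 39, 33, 694, 161 and 129 genes at an unadjusted p under 0.05, and DESeq2 also gave 0, with 23, 11, 736, 112 and 141. Same-numbered libraries deviated together in these 5 lines, though weakly in 1014-Ctrl (correlations of 0.101 to 0.244). With the replicate number as a block 5 genes were called in 1014-Grpr and 0 in the other 4 lines. Without the mock library that held Grpr the block called 30 genes in 1014-Ctrl. Members of the 115 were among the genes called with the block. In 1014-Grpr it was Nr4a3 (1 of 52, or 1.92%, against 0.0291% of all genes called higher), with a log2 fold change of 1.17 (SE 0.16, adjusted p = 0.00550). In receptor-negative 1014-Ctrl without that library they were Fosl2 and Cdc42ep5 (2 of 50, or 4%, against 0.144%), with 0.27 and 0.32. The 1181 lines are male, labelled Tyr::NRASQ61K/° with Cdkn2a-/- and Cdh1dF/dF without the Cre, and carry CMV::tGFP or CMV::Grpr/tGFP, and 1014-Ctrl carries CMV::tGFP. Of the members of the 115 tested in 1064, 74 of 83 had a log2 fold change above 0, with a median of 0.51 (47.1% of all genes did, with a median of -0.01). In 1014-Grpr 37 of 52 lay above 0, with a median of 0.15, and in 1181-Grpr 33 of 58, with a median of 0.03. In the receptor-negative lines 33 of 47 did in 1014-Ctrl, with a median of 0.16, or 27 of 50 with a median of 0.04 without the mock library that held Grpr, and 30 of 46 did in 1181-Ctrl, with a median of 0.08. Over all genes 48.4% to 49.7% lay above 0 in these 4 lines. With all libraries the medians of 1014-Grpr and 1181-Grpr were thus no higher than those of their receptor-negative controls, whereas without that library 1014-Ctrl lay below 1014-Grpr, and these differences were not tested. In the fits without the block none of the values that follow passed an adjusted p of 0.05. Stc1 changed by 1.42 (SE 0.56) in 1064 and 1.48 (SE 0.37) in 1014-Grpr and could not be tested in the remaining lines. Nr4a3 changed by 1.27 (SE 0.86) in 1064, 1.14 (SE 0.40) in 1014-Grpr, 0.24 (SE 0.28) in 1181-Grpr, 0.51 (SE 0.58) in 1181-Ctrl and -0.37 (SE 0.45) in 1014-Ctrl, or 0.47 (SE 0.28) there without that library.

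**Figure D5:**
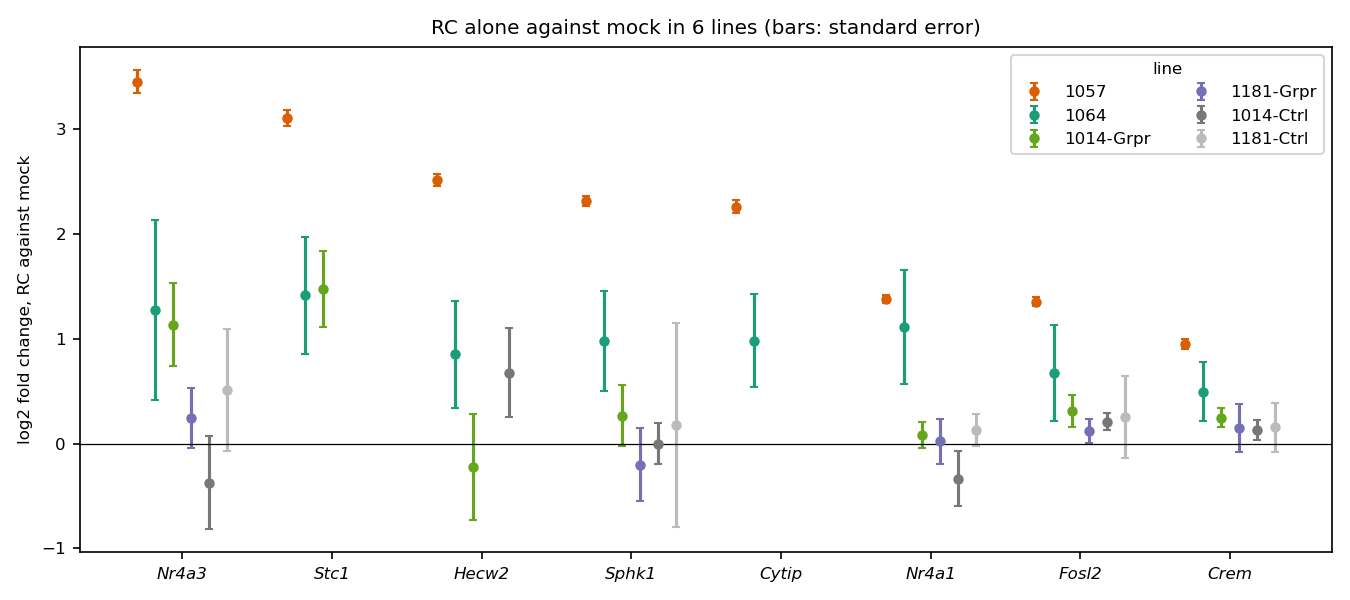
Log2 fold change of RC against mock (y axis) for 8 genes (x axis) in each of the 6 lines, with bars for the standard error. The points of 1057 lie highest with the shortest bars, and those of 1064 come next for Nr4a1, Sphk1, Fosl2 and Crem; 1014-Ctrl includes the mock library that held Grpr, and a missing point means that the gene was not tested in that line.

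Whether the RC effect itself differs between 1057 and the receptor-negative lines was tested as an interaction, 1057 minus the mean of 1181-Ctrl and 1014-Ctrl, over 16060 genes. It was larger in 1057 past both thresholds for 7 genes (0.0436%) and smaller for none, and at an adjusted p under 0.05 alone 29 genes were called (0.181%). Of the 115 genes, 112 were tested and 3 were called (2.68%), namely Nr4a3, Nr4a1 and Plaur. The 115 were chosen on the same 1057 libraries that enter the interaction, so their share of calls in it, here and with the block, is in part built in, and nothing is read from it. The differences in log2 fold change were 3.37 for Nr4a3 (SE 0.52, adjusted p = 0.00137) and 1.48 for Nr4a1 (SE 0.23, adjusted p = 0.00137). Without the 1014-Ctrl mock library that held Grpr, 11 genes were called past both thresholds and 61 at the adjusted p alone, and Nr4a3 and Nr4a1 stood at 2.95 and 1.31. With 1181-Ctrl as the sole comparator 6 genes were called, and with 1014-Ctrl 21. With the replicate number within each line as a block, 273 genes were larger in 1057 past both thresholds (1.7%) and 3 smaller, and 35 of the 112 were among the 273 (31.2%). With that block and without the same library, 62 genes were larger (0.379%) and 11 smaller, and 39 of 113 were among the 62 (34.5%).

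Exons of Stc1, Sphk1, Ptgfr, Ramp3, Ptger4, Crem, Dusp5, Ccn2, Tnc, Crim1, Fosl1, Jun, Junb, Jund, Kank3, Manf, Mc1r, Mecom and Zfp52 overlap an annotated gene on the opposite strand, and whether reads were counted by strand is not given in the sources used here, so their counts may include reads of that partner. Those of Lats2, Serpinb2, Rab27a, Manf and Cfap43 overlap a gene on the same strand. One fit of all 72 libraries left 15 genes higher and 0 lower past both thresholds.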

How the data were processed

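RNA of 72 mouse melanoma libraries, 12 for each of 6 lines, was sequenced by the authors after poly(A) selection with a stranded kit. The authors checked reads with FastQC 0.11.5, aligned them with STAR to GRCm38.p5 (mm10) with a GENCODE annotation and deposited raw counts per gene, which were used here. The deposited TPM values served 1 alternative; TPM columns written with decimal commas were read as numbers. Whether counting used strand is not given in the sources used here. Of 50600 genes, 99.6% matched a symbol.

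The 12 libraries of 1057 were fitted together with edgeR 4.0.16 (R 4.3.3): filterByExpr, TMM scaling, quasi-likelihood F test, two-sided, Benjamini-Hochberg adjustment over all genes tested. Called genes had an adjusted p under 0.05, alone or with an absolute log2 fold change above 1. CPM are TMM-scaled. Other lines were fitted separately, and the interaction over 36 libraries. Depth was 30085078 to 36679667 counts per library. Replicates of 1057 differed beyond sampling noise (chi-square per degree of freedom 2.44 to 9.09). Same-numbered mock and RC libraries were compared by the correlation of their deviations from the group means. It was 0.0265 to 0.0884 in 1057, 0.101 to 0.244 in 1014-Ctrl and 0.412 to 0.832 in the remaining lines, and these differences were not tested. Alternatives used DESeq2 1.42.0, limma 3.58.1 on log2(TPM + 1), other filters and designs, and omission of single libraries. Motifs were counted with Python 3.11.15.

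Genes named were Grpr, the 15 largest changes in each direction with at least 0.5 CPM, up to 4 called members per list, the genes of the interaction and 9 genes set by name (Ccn1, Ccn2, Tead4, Lats2, Crim1, Tnc, Plaur, Nr4a3 and Serpinb2). Fosl1, Egr1, Egr2, Egr3, Egr4, Plau, Gem, Fosb, Jun, Junb, Jund, Cdc42ep5, Nol4, Kank3, Ccrl2 and Met fell outside this rule and were chosen after their values were seen, as were the genes at the fold threshold. The members and the gene lists were chosen with earlier results of these data known.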

Additional observations from a re-analysis of the deposited data

Results flagged for a closer look

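For 7 genes the RC effect differed past both thresholds between 1057 and the receptor-negative lines 1181-Ctrl and 1014-Ctrl by the test of the difference itself (edgeR's quasi-likelihood test of the interaction). At the adjusted p alone 29 genes were called. This fit had no replicate block, and with the block 931 genes were called at the adjusted p alone. The difference in log2 fold change, 1057 minus the mean of the 2 lines, was 3.37 for Nr4a3, 1.48 for Nr4a1 and 1.56 for Plaur (adjusted p = 0.0302), described above. It was 1.12 for Id3, a helix-loop-helix inhibitor of differentiation (adjusted p = 0.00966), which went from 4.23, 5.02 and 4.77 CPM in mock to 8.33, 9.99 and 8.66 CPM after RC in 1057. It was 1.04 for Zfand2a, a stress-induced regulator of the proteasome (adjusted p = 2.23e-05), at 91.1, 78.7 and 75.3 CPM in mock and 164, 158 and 163 CPM after RC. The zinc finger gene Zfp52 differed by 1.07 (adjusted p = 0.00966) and the cilium gene Cfap43 by 1.05 (adjusted p = 0.0130). Mock and RC libraries of 1057 did not overlap for any of the 7, and all 7 kept the sign of the difference in each alternative. Leaving out single libraries of 1057 gave adjusted p values of 0.0628 to 0.173 for Plaur, 0.0407 to 0.0830 for Cfap43, 0.0176 to 0.0638 for Id3 and 0.0198 to 0.0723 for Zfp52, and the adjusted p of Nr4a3, Nr4a1 and Zfand2a stayed under 0.05 in each. Against 1181-Ctrl alone the adjusted p was 0.285 for Plaur, 0.217 for Cfap43, 0.181 for Zfp52 and 0.0685 for Id3. Zfand2a and Cfap43 fell short of the fold threshold there, with differences of 0.91 and 0.89. They also fell short without the 1014-Ctrl mock library that held Grpr, at 0.96 and 0.95. The differences of Nr4a3, Nr4a1, Plaur, Id3 and Zfp52 stayed above 1 in both settings.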

How the results depend on the processing

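In 1057, 105 to 126 genes rose and 6 to 15 fell past both thresholds when single mock or RC libraries were left out; without mock replicate 2 there were 7 lower, and without mock replicate 3 there were 6. One fit of all 72 libraries called 15 higher and 0 lower past both thresholds (911 genes in either direction at an unadjusted p under 0.05). At the adjusted p alone it called 38 higher and 3 lower. Past both thresholds limma on log2(TPM + 1) called 34 and 0. The 11 lower genes became 3 with DESeq2, 17 with no filter and, chosen after seeing the data, 5 among genes of at least 0.5 CPM. The fit of 72 libraries left 5 immediate early factors, 3 Gq-responsive and 3 CREB target genes higher, 0 in each of the MAP kinase, YAP/TAZ, SRF, unfolded protein, cholesterol and ribosome lists, and 0 pigment and 0 mitosis genes lower. Leaving out single libraries gave 5 to 9 mitosis genes lower, with 9 without mock replicate 1. Serpinb2 turned to -0.015 with limma, and ran from -0.25 to 0.26 when single libraries were left out, below 0 without mock replicate 3, RC replicate 1 (-0.08) or RC replicate 2 (-0.09).

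The median of the genes raised by GRP elsewhere became 0.18 with lists called at the adjusted p alone and 0.27 from 1014-Grpr alone, and that of the lowered genes -0.19 and -0.21, or -0.35 to -0.29 without single libraries. For the interaction, past both thresholds and at the adjusted p alone, counts were 11 and 61 without the 1014-Ctrl mock library, 21 and 121 with 1014-Ctrl alone, 63 and 139 with DESeq2, and 4 to 6 and 17 to 24 without single libraries of 1057 (lowest without mock replicate 3). With the replicate block they were 273 and 931, and 62 and 1957 with the block and without the 1014-Ctrl library. With the block, 5 genes were called in 1014-Grpr, and 30 in 1014-Ctrl without that library. The fits of the other lines with the block, with DESeq2 or without a doubted library, and the block without the 1014-Ctrl library, were chosen after seeing the data. In 1057 itself the block moved no count by over 1.5 times. The cause of these changes was not tested. The other values kept their direction and their side of the threshold, except 75 values of single genes, most of them in the fit of 72 libraries. Fos, Fosl1 and Plaur, named at the opening, were not called in every alternative fit, nor were Egr3 and Plau. Nr4a1, Nr4a2, Nr4a3, Fosl2, Stc1, Sphk1 and Rgs2 kept an adjusted p under 0.05 in each. Genes under about 0.5 CPM are limited by depth.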
